A study of Mus musculus with 10 samples.

Results

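Intragenic H3K4me3 peaks away from transcript starts were 3574 of the 32496 autosomal peaks (11.0%) in the H3K4me3 ChIP-seq list of F123 mouse embryonic stem cells. A peak was counted when it was under 5000 bp wide, lay wholly inside the body of a protein-coding gene of GENCODE M21 on chromosomes 1 to 19, and was more than 5 kb from every annotated transcript start of any gene. Of the autosomal peaks, 32093 were under 5000 bp, 11315 of these lay wholly inside a protein-coding gene, and the distance to starts left 3574. The members had 2192 host genes, and 3497 of them had a single host. The annotation and the genome (GRCm38) are of the mm10 build that the labels name.

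The study mapped chromatin contacts in F123 cells, an F1 hybrid line of a Mus musculus castaneus by S129/SvJae cross, and took the ChIP-seq peaks of the protein studied, here H3K4me3, as the places from which contacts were read. The line was grown with LIF on feeder cells (irradiated CF1 mouse embryonic fibroblasts) and passaged once without feeders before it was collected. Genotype, medium and growth were shared by every library, so no treatment or time separates the groups. The H3K4me3 ChIP-seq had 2 replicates of 2000000 cells each and the ATAC-seq 2 replicates of 100000 cells each. Each assay is given as 1 list of peaks for its replicates together, without read counts, so the depth is unknown and a spread between replicates cannot be computed. The contact libraries and inputs were not analysed here. The starts of Pou5f1, Sox2, Nanog, Zfp42 and Esrrb, 5 genes that mark pluripotent cells, all carried H3K4me3 peaks, with fold enrichments between 14.9 (Nanog) and 42.9 (Sox2). The share of remaining feeder cells was not tested.

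H3K4me3 is laid down on histone H3 by SET1 and MLL family methyltransferases and is densest over active and poised promoters, above all at CpG islands, where CXXC proteins bind unmethylated CpG and bring the enzymes in. Away from promoters lower levels of the mark occur at some enhancers, at unannotated promoters and in CpG-rich stretches of gene bodies. ATAC-seq reads DNA that the Tn5 transposase can reach and so marks open chromatin, whether a promoter, an enhancer or an insulator.

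Members, 10 in all, are shown by the sequence around their summits, 300 bases of the plus strand of the reference genome (GRCm38.p6, from RefSeq) in lower case with every CpG in capitals. They were taken because they hold the extremes and the middle of what follows. Atrnl1, Ldb3 and Gramd1b are the strongest whose window touches no annotated exon, and Sobp is the strongest whose window is wholly coding. Zyg11a is the strongest such window without an ATAC-seq peak, and Spin1 is an intronic peak at the median strength with one. Kcnq1 and Esrrb come from hosts of dense peaks, Trim71 is the strongest usable window among hosts on a list of pluripotency regulators, and Ptprd is the farthest from a GENCODE start. The Kcnq1 peak (fold enrichment 3.72) lay outside the runs of neighbouring Kcnq1 peaks described below, and outside the noncoding RNA gene Kcnq1ot1 that holds those runs.
Atrnl1 chr19:57667742-57668041: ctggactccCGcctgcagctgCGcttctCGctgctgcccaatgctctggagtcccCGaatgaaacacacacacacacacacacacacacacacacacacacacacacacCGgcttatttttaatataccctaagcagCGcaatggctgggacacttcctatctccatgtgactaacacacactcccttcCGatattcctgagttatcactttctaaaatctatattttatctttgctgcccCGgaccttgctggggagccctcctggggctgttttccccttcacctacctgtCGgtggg
Ldb3 chr14:34549218-34549517: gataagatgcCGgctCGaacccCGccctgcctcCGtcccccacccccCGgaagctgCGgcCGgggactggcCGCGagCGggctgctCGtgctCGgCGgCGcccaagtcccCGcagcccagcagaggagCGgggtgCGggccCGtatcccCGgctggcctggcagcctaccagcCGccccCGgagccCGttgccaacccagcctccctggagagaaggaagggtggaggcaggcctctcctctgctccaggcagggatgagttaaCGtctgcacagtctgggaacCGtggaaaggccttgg
Gramd1b chr9:40414677-40414976: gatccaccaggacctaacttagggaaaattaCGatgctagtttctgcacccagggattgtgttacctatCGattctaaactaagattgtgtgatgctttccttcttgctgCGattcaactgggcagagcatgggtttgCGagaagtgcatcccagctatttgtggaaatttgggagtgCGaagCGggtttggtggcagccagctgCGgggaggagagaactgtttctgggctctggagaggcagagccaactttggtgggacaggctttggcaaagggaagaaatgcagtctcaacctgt
Sobp chr10:43021404-43021703: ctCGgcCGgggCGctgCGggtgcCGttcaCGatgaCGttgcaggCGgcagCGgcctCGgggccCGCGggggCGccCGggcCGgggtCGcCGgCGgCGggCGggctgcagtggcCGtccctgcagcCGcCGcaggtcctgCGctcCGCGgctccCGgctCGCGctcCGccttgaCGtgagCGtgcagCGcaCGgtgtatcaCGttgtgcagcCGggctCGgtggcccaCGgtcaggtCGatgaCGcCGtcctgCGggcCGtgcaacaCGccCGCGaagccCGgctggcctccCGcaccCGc
Zyg11a chr4:108193119-108193418: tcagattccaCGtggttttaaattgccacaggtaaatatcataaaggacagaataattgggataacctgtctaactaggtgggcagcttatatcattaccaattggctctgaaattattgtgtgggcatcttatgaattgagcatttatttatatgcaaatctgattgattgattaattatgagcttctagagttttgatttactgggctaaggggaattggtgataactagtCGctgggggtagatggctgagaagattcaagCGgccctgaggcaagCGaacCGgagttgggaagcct
Spin1 chr13:51122522-51122821: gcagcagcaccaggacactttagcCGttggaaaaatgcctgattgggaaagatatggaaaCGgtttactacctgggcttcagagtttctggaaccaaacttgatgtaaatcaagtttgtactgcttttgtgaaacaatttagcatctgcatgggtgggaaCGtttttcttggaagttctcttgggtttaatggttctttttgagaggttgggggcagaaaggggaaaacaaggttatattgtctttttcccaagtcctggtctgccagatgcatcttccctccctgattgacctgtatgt
Kcnq1 chr7:143201257-143201556: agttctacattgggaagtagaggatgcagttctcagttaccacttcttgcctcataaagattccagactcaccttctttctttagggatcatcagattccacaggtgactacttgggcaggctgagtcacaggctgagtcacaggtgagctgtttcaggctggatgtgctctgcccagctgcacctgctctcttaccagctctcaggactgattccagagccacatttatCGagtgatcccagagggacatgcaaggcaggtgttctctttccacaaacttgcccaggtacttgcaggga
Esrrb chr12:86481931-86482230: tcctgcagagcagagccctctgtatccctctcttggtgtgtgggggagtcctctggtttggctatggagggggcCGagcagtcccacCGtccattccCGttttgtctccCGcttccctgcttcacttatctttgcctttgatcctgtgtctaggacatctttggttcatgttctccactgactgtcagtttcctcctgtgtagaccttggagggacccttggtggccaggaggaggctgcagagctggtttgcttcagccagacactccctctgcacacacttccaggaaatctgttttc
Trim71 chr9:114526962-114527261: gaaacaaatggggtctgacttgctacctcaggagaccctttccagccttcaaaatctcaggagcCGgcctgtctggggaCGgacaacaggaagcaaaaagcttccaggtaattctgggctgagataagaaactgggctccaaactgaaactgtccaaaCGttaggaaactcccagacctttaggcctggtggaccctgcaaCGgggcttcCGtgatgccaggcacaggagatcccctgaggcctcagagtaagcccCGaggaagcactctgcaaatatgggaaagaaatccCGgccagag
Ptprd chr4:77311282-77311581: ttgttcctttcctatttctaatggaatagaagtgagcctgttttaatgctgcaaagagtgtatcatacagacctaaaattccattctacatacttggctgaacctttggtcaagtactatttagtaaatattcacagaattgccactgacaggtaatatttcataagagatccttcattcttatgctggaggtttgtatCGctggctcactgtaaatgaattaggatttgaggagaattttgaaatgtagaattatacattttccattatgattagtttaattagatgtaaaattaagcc
The Sobp window held 49 CpGs and 78.3% G+C, and the Ldb3 window 24 CpGs and 71.3%. The Atrnl1 window, at the strongest member of all, held 9 CpGs, and the Gramd1b and Trim71 windows 7 each. The Kcnq1 and Ptprd windows held 1 CpG each, so members ranged from CpG-island-like sequence to sequence almost without CpG.

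Most members were weak and narrow, and few were as strong as the median peak at a transcript start. Fold enrichment is the signal of a peak over the background that the authors' peak caller estimated. Its median was 4.08 over the members (quartiles 3.25 and 5.98, range 1.67 to 40.5), against 23.6 for the 17973 peaks within 1 kb of a transcript start and 4.21 for the 5002 peaks outside genes and over 5 kb from starts. Both comparison sets were held to the same width limit, which left out 393 of the 403 autosomal peaks of 5000 bp or wider from the set at starts. Median width was 581 bp (range 210 to 3939 bp), 1786 bp at starts and 610 bp outside genes. The median −log10 q was 11.3, against 293 at starts. Fold enrichment was under 3 in 556 members (15.6%), 3 to 5 in 1783 (49.9%), 5 to 10 in 878 (24.6%) and 10 or more in 357 (9.99%, 95% Wilson interval 9.05 to 11.02%). At starts 73.8% of peaks reached 10, and outside genes 13.5%. A member at 10.0 was stronger than 26.2% of peaks at starts. A member at 24.0, near the median at starts, was stronger than 99.2% of members. Intervals here cover counting error only and take peaks as independent, which neighbouring peaks are not.

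The strongest member lay in Atrnl1, which encodes an attractin-like membrane protein, at chr19:57666635-57669044 in intron 9 of 28, 55.6 kb from the nearest start. Its fold enrichment of 40.5 was higher than that of 83.0% of the peaks at starts. Ldb3, a protein of the muscle Z-disc, followed with 36.9 at chr14:34547767-34550068. The next were Sorbs3 (32.7), which encodes the adhesion protein vinexin, Tns3 (31.8), a tensin of focal adhesions, and the kinase gene Lmtk3 (31.6). Gramd1b, a carrier of cholesterol between membranes, had 31.3 and Macrod1, an ADP-ribosylhydrolase, 31.1. Prdm12, a PRDM-family regulator of pain neurons, had 30.2, Sobp 30.1 and the gene model Gm20388 30.0. All 10 shared sequence with an ATAC-seq peak, 5 had a CpG ratio of 0.6 or more, and 3 (Lmtk3, Prdm12 and Sobp) had their summit in a coding exon.

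Several of the strongest members held a start in another annotation, mostly that of a predicted transcript. RefSeq, which the rule did not use, placed a transcript start inside 5 of these 10 peaks: those in Sorbs3, Tns3, Gramd1b, Macrod1 (a start of Flrt1) and Gm20388 (a start of Zfp469). Of the starts recorded there, only that of Zfp469 was of a curated transcript, and the others were of predicted models. Over all members 205 (5.74%) lay within 1 kb of a RefSeq start and 464 (13.0%) within 5 kb. The share within 1 kb was 4.50% under fold 3, 4.54% from 3 to 5, 6.15% from 5 to 10 and 12.6% (9.56 to 16.5%) at 10 or more. For 185 of the 205 the start was of a predicted model (XM or XR) rather than a curated transcript. Ptprd, a receptor phosphatase gene, shows the same at a weak peak: its member (fold enrichment 3.72) was 352376 bp from the nearest GENCODE start, but 42 bp from a RefSeq start of Gm38646. The next in distance were a pair of members in Gucy1a2, a guanylate cyclase subunit gene, 295872 and 295362 bp from a start, with fold enrichments of 2.08 and 3.72 and no ATAC-seq peak.

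**Figure D1:**
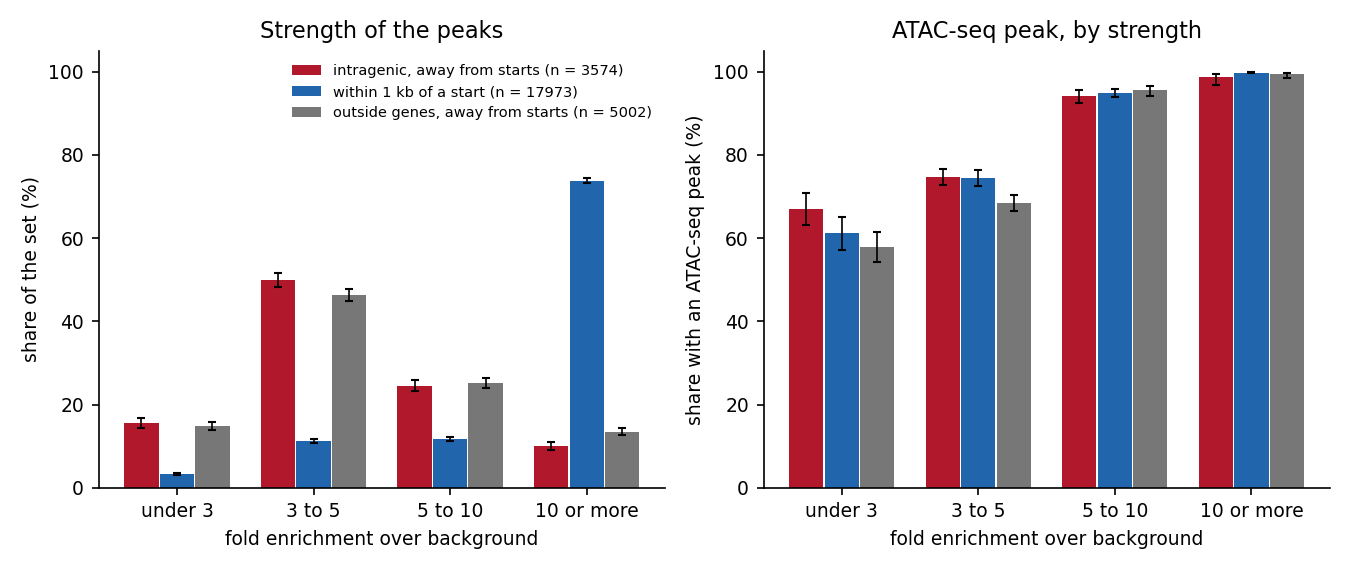
Left, the share of each set of H3K4me3 peaks (y axis, percent) by fold enrichment over background (x axis); right, the share of peaks in each range that overlapped an ATAC-seq peak by 1 bp or more. Bars are the 3574 intragenic peaks (red), the 17973 peaks within 1 kb of a start (blue) and the 5002 outside genes (grey), and lines are 95% Wilson intervals; 9.99% of intragenic peaks reached 10-fold against 73.8% at starts, while ATAC-seq shares rose with strength in all 3 sets.

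Open chromatin was found at most members. An ATAC-seq peak overlapped, by 1 bp or more, 2884 of 3574 members (80.7%, 79.4 to 82.0%), where 87.0% of all autosomal H3K4me3 peaks had one. The share was 95.1% at starts, 14.4 points above the members (95% Newcombe interval of members minus starts −15.8 to −13.1 points), and 77.9% outside genes, where members minus the others came to 2.81 points (1.06 to 4.53). Strength moved with these shares. Among members 67.1% had an ATAC-seq peak under fold 3, 74.7% from 3 to 5, 94.2% from 5 to 10 and 98.6% at 10 or more. Within the same ranges, which were chosen after seeing the data, members minus peaks at starts was 5.89 points (0.32 to 11.4), 0.17 (−2.61 to 2.93), −0.70 (−2.64 to 1.01) and −1.14 (−2.98 to −0.34). Width was not matched within the ranges, and the part of strength in the gap of 14.4 points was not tested. Against peaks outside genes it was 9.18 points (3.86 to 14.4), 6.23 (3.45 to 8.97), −1.29 (−3.31 to 0.59) and −0.81 (−2.68 to 0.41). When a peak had to cover 50% of an ATAC-seq peak, members minus starts came to −28.6 points and members minus peaks outside genes to −0.57.

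Of the members 2342 held 1 ATAC-seq peak, 473 held 2, 56 held 3 and 13 held 4 or more. The widest ATAC-seq peak at a member had a median width of 532.5 bp. All autosomal ATAC-seq peaks had a median of 260 bp, which is not a like measure. The first takes the widest where several touch a member, and a wider peak touches a member more readily. The H3K4me3 summit was a median of 153.5 bp from the nearest ATAC-seq peak centre. The reverse did not hold: of 43560 ATAC-seq peaks wholly within coding gene bodies and over 5 kb from starts, 3357 (7.71%) touched a member. The 690 members without an ATAC-seq peak were weaker (median fold enrichment 3.37 against 4.44) and narrower (454.5 against 624 bp). Soft-masked repeats made up at least 50% of 11.2% of them, against 3.92% of the others. Their nearest ATAC-seq peak was a median of 1558.5 bp away, within 1 kb for 41.6% and over 10 kb for 13.5%. The strongest without one lay in Sptbn4 (11.6), a spectrin of the axon, the protease gene Tmprss9 (10.97), Zyg11a (10.7), the ciliary gene Drc3 (10.1) and Cuedc1 (10.0), where a RefSeq start lay inside the peak. The nearest ATAC-seq peak to each was, in that order, 1867, 1501, 56, 2955 and 366 bp away.

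The summit lay in an intron of the host in 2697 members (75.5%), in a coding exon in 706 (19.8%), in a 3′ UTR in 143 (4.00%), in a noncoding exon in 27 and in a 5′ UTR in 1. Summits were exonic more often than the gene bases that could hold a member, taken over all autosomes rather than near each summit. Bases of protein-coding genes over 5 kb from every start came to 669.7 Mb, of which 5.31% were exonic and 2.01% coding, while 24.5% (23.2 to 26.0%) of members had an exonic summit. The exonic share rose with strength, from 14.9% under fold 3 through 22.2% and 30.2% to 37.5% (32.7 to 42.7%) at 10 or more. Soft-masked repeats made up 28.4% of the same bases but a median of 10.6% of a member, and their part in the exonic share was not tested. Of the 2596 members whose intron could be numbered, 840 (32.4%, 30.6 to 34.2%) lay in the first intron and 246 (9.48%) in the last, against 24.1% and 8.98% of intron bases over 5 kb from starts. Along the gene, members were most frequent near its end. Genes were cut into 10 equal parts, and the last part held 15.4% of members and 10.3% of the bases that could hold one, the part before it 12.0% and 10.1%. The 2 shares are not wholly alike. A base in overlapping genes was counted for each gene, a member only in its shortest host.

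**Figure D2:**
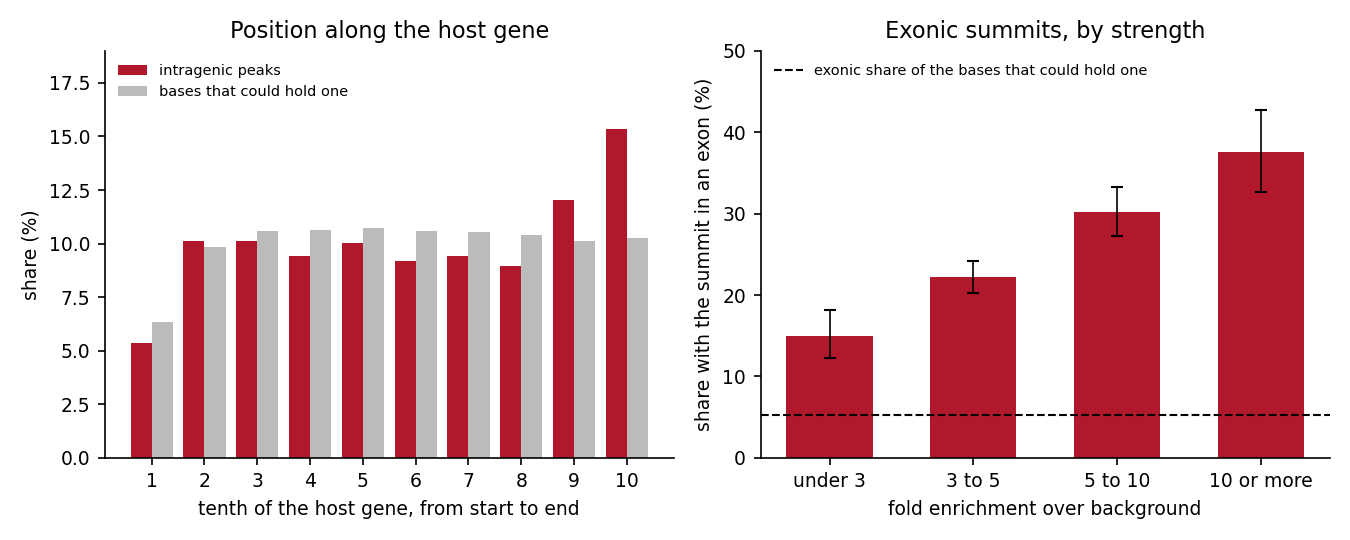
Left, the share (percent) of the 3574 intragenic peaks (red) and of the gene bases over 5 kb from every start (grey) in each of 10 equal parts of the gene from start to end; right, the share of intragenic peaks with the summit in an exon (percent, with 95% Wilson intervals) by fold enrichment over background. The last part held 15.4% of peaks and 10.3% of bases, and the exonic share ran from 14.9% to 37.5% against 5.31% of bases (dashed line). On the left, a base in overlapping genes was counted for each gene, and a peak only in its shortest host.

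Members with a coding summit were stronger, wider and richer in CpG than those in introns. Their median fold enrichment was 4.90 against 3.93, their width 698.5 against 556 bp and the observed over expected CpG ratio 0.516 against 0.342, while the ATAC-seq share was alike (81.2%, 78.1 to 83.9%, and 80.8%, 79.3 to 82.2%). A CpG ratio of 0.6 or more was found in 27.5% of coding and 5.75% of intronic members. The 5 strongest with a coding summit were in Lmtk3, Prdm12, Sobp, Asb18 (28.6), a gene with ankyrin repeats and a SOCS box, and Zfp697 (26.9), a zinc finger gene, and 4 of the 5 had a CpG ratio of 0.6 or more. Over all members 10.3% (9.32 to 11.3%) reached a ratio of 0.6, against 40.2% of peaks at starts and 8.02% outside genes. By strength the members' share was 5.58%, 8.52%, 9.79% and 27.5% (23.1 to 32.3%), so it was highest at fold 10 or more. At starts it was 50.3% in that range.

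**Figure D3:**
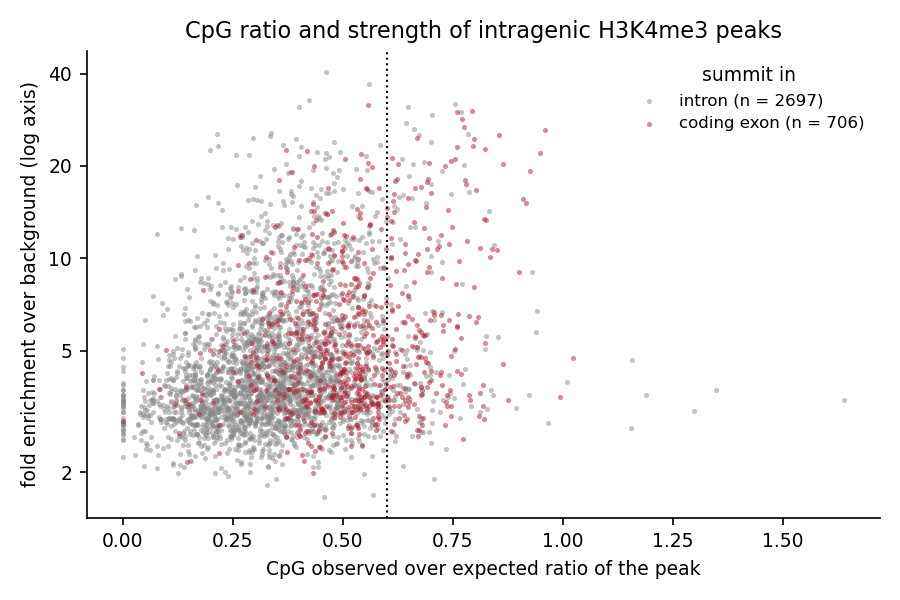
Each point is an intragenic peak, with its observed over expected CpG ratio on the x axis and its fold enrichment over background on a log y axis, grey for the 2697 with an intronic summit and red for the 706 with a coding one. The dotted line is the ratio of 0.6, reached by 27.5% of coding and 5.75% of intronic peaks.

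Short motifs, 10 in all, were counted in 300 bases around each summit, on both strands. GGGCGG, the core of SP and KLF sites, was in 21.4% of members, 51.2% of peaks at starts, 19.8% outside genes and 38.2% of all autosomal peaks, and within the members in 12.9% under fold 3 and 37.3% at 10 or more. ACAATG, a SOX core, was in 11.3% of members, 5.86% at starts, 12.4% outside genes and 8.44% of all. ATGCAAAT, the octamer of POU factors, was in 1.29% of members, 0.612% at starts and 2.02% outside genes, with 1.05% of all. CACGTG, the E-box of MYC, was in 6.52% of members, 5.62% at starts, 5.54% outside genes and 5.78% of all, and TGACGTCA, the cAMP response element, in 0.532% of members, 0.540% at starts, 0.320% outside genes and 0.452% of all. Of the others, AGGGGGC, a part of the CTCF motif, was in 7.02% of members and 8.96% of all. CCGGAAGT (ETS) was in 0.923% of members and 1.22% of all, and AAGATGGCG (YY1) in 0.420% and 0.828%. TCAAGGTCA (ESRRB) was in 0.448% of members and 0.382% of all, and TTCCNGGAA (STAT) in 1.26% and 0.917%. TTCCNGGAA and CCGGAAGT can share letters. A match is a run of letters and does not show binding.

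The widest members were not the strongest. They lay in Ostm1 (3939 bp, fold enrichment 6.27), which encodes a partner of a lysosomal chloride transporter, Trim71 (3513 bp, 9.58), Pigl of the GPI-anchor pathway (3498 bp, 8.19), the serpin gene Serpina3m (3498 bp, 17.1) and the GABA transaminase gene Abat (3459 bp, 23.3). All 5 were intronic and had ATAC-seq peaks, but those in Ostm1 and Serpina3m lay outside the RefSeq gene of that name. Those in Serpina3m and Abat were 63.6% and 63.3% soft-masked repeat. A further 2 intragenic peaks over 5 kb from starts were left out as 5000 bp or wider, in Brd1 (5766 bp, 12.3) and Pced1b (5457 bp, 23.3). At the 5 kb limit the members just inside were in Elmsan1 (5003 bp from a start, fold enrichment 2.61), Dact3 (5007 bp, 2.59) and Nufip2 (5013 bp, 3.10), and the peaks just outside were in Myh3 (4999 bp, 3.96), Tex2 (4997 bp, 2.73) and A630089N07Rik (4994 bp, 2.39).

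The 2192 hosts were 16.4% of the 13327 autosomal protein-coding genes with at least some sequence over 5 kb from every start. They were long: their median length was 75.0 kb against 30.0 kb for the other 11135, and the room for a member 48.1 against 13.4 kb. The share of genes that were hosts was 3.03% with under 5 kb of room, 11.2% from 5 to 20 kb, 19.1% from 20 to 50 kb, 27.9% from 50 to 100 kb, 38.5% from 100 to 300 kb and 47.9% (43.2 to 52.6%) from 300 kb. A start of the gene also carried H3K4me3 in 89.3% (88.0 to 90.5%) of hosts and in 75.0% (74.2 to 75.8%) of genes with room and no member. A peak within 1 kb of any start of the gene counted, and these shares were not matched for gene length or number of starts. Hosts of 1 member numbered 1405 (64.1%), hosts of 2 numbered 471, and 71 had 5 or more. Members per Mb of such sequence averaged 5.34, from 3.14 to 7.50 by chromosome.

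Members by host were most numerous in Gm20388, Kcnq1, D10Wsu102e, Gse1 and Zfhx3. Gm20388 is a read-through gene model of 4435 kb that spans many genes, and its 48 members were partly those of shorter genes within it. Kcnq1, a voltage-gated potassium channel gene in an imprinted cluster, had 23 members with fold enrichments from 2.12 to 5.96, of which 2 had an ATAC-seq peak. D10Wsu102e, a gene of no known role, had 17, from 2.58 to 4.22, all with the summit in its long GENCODE 3′ UTR, and 1 had an ATAC-seq peak. In RefSeq the gene is 8.62 kb long and holds none of the 17. In Gse1 14 of 15 members had an ATAC-seq peak and fold enrichments reached 13.5, and in Zfhx3, a homeodomain and zinc finger factor, 9 of 12 did and they reached 10.7. Hosts with many members therefore differed in ATAC-seq share from 5.88% in D10Wsu102e to 93.3% in Gse1.

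**Figure D4:**
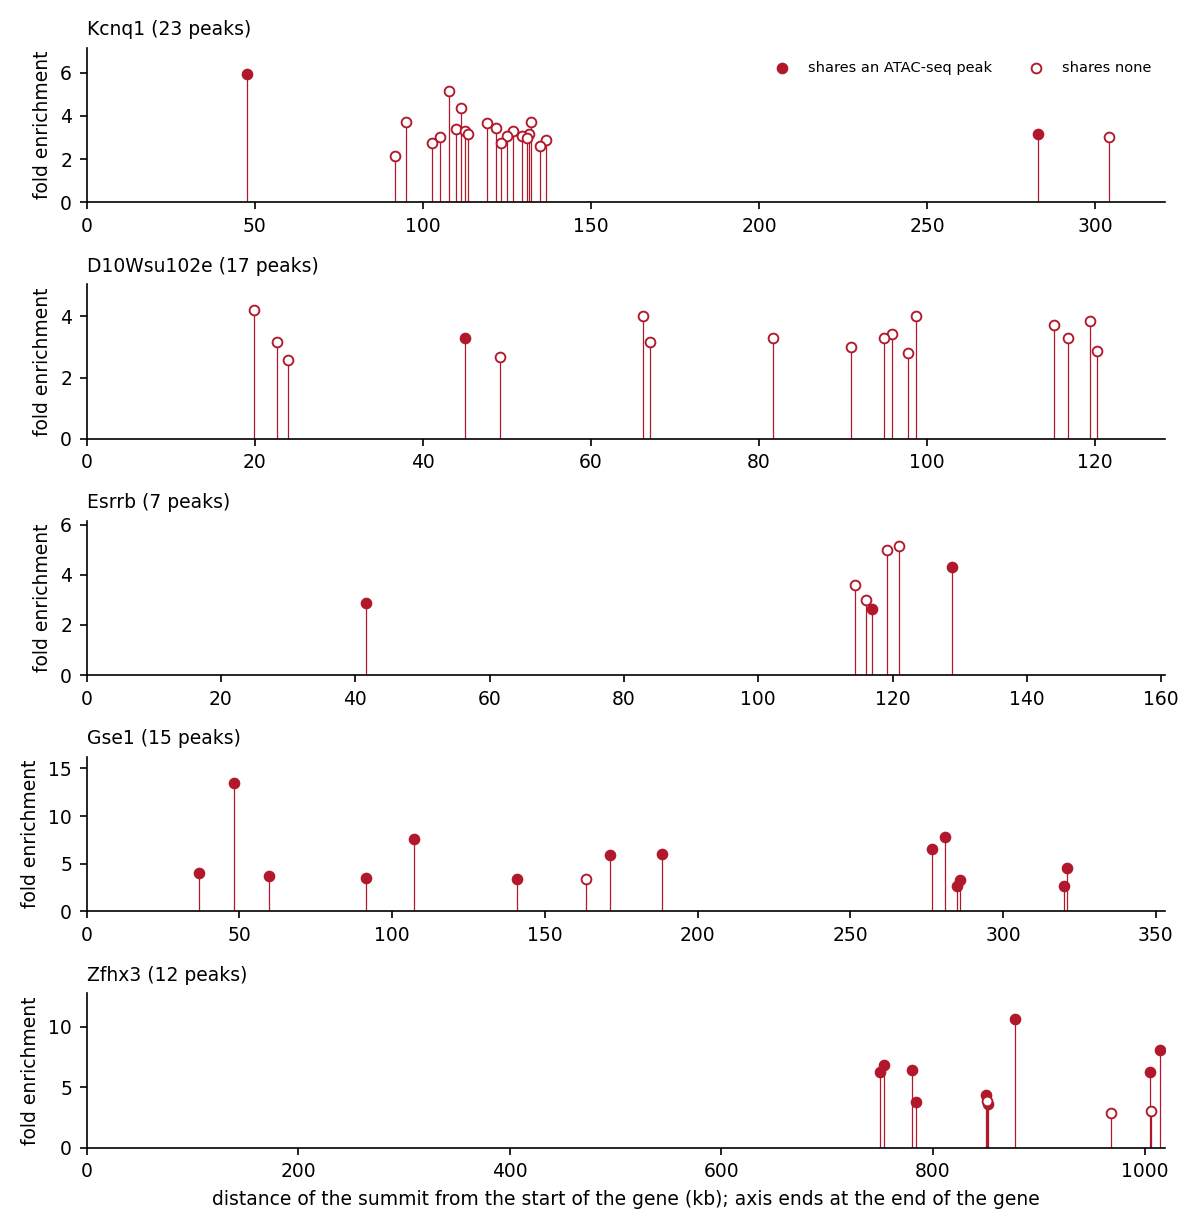
Each stem is an intragenic peak at the distance of its summit from the start of its gene (x axis, kb, ending at the end of the gene) with its fold enrichment over background (y axis), filled where it shared an ATAC-seq peak and open where it did not. Kcnq1 (23 peaks, 2 filled) and D10Wsu102e (17, 1 filled) hold mostly open points, Esrrb (7, 3 filled) both, and Gse1 (15, 14 filled) and Zfhx3 (12, 9 filled) mostly filled ones.

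Members under 5 kb apart were joined into 2945 runs. Other H3K4me3 peaks were not counted, so a member alone in its run could still have such a peak nearby. Over all members the nearest other H3K4me3 peak was under 1 kb away for 742 and 1 to 5 kb away for 628. Of the members 2476 were alone in their run, 728 were in runs of 2, 289 in runs of 3 or 4 and 81 in 14 runs of 5 or more. ATAC-seq shares were 83.8% (82.3 to 85.2%) for those alone, 81.0% in runs of 2, 63.7% in runs of 3 or 4 and 44.4% (34.1 to 55.3%) in runs of 5 or more. Without the 18 members of Kcnq1 the last came to 36 of 63, or 57.1% (44.9 to 68.6%). Median fold enrichment (4.15, 4.01, 3.87 and 3.55), CpG ratio (0.395, 0.355, 0.293 and 0.274) and soft-masked share (9.64%, 11.3%, 15.4% and 19.005%) moved with run length, and their part in the ATAC-seq shares was not tested.

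The run with most members was in Kcnq1. It held 11 members over 17.9 kb (chr7:143225289-143243149) with fold enrichments from 2.63 to 3.71, and a second run of Kcnq1 held 7 over 11.8 kb (chr7:143208457-143220240) from 2.73 to 5.16. No ATAC-seq peak lay in either span. All 18 lay inside Kcnq1ot1 (chr7:143203458-143296549, minus strand), a long noncoding RNA transcribed antisense through Kcnq1 and known for silencing neighbours on the paternal chromosome. The 1 other H3K4me3 peak within Kcnq1ot1 was at its start, at fold enrichment 33.8 and with an ATAC-seq peak. In D10Wsu102e and in Ppm1b, a protein phosphatase gene, runs of 5 (2.81 to 4.01 and 3.00 to 3.87) likewise held no ATAC-seq peak, so 4 of the 14 runs, with 28 members, had none. In Esrrb, an orphan nuclear receptor of the pluripotency network, 1 of the 5 members of a run over 7.41 kb had one, and their fold enrichments were 2.63 to 5.14. Other runs were open at most members, as in the RNA-binding protein gene Rbpms (6 of 7, over 17.7 kb) and the cytoskeletal linker gene Dst (4 of 6).

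**Figure D5:**
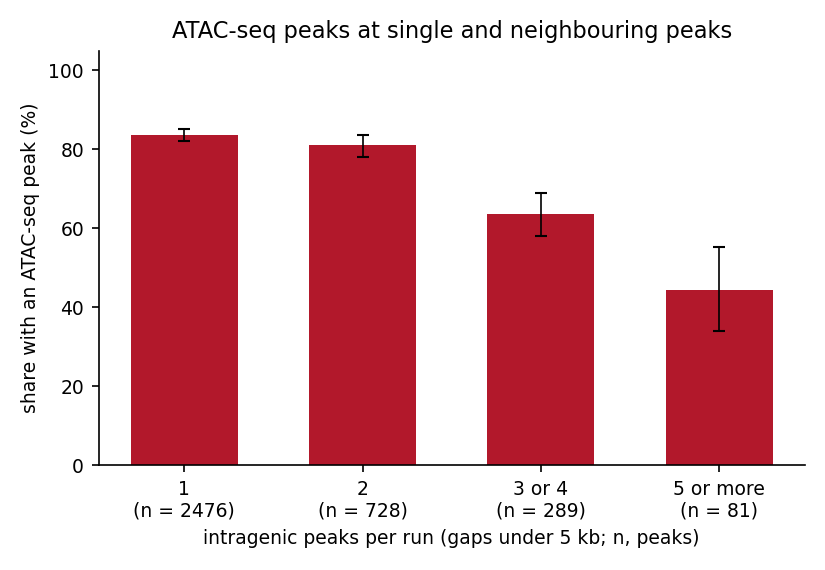
Share of intragenic H3K4me3 peaks with an ATAC-seq peak (y axis, percent, with 95% Wilson intervals) by the number of intragenic peaks in a run with gaps under 5 kb (x axis, with the number of peaks). It was 83.8% for peaks alone in their run and 44.4% in runs of 5 or more. H3K4me3 peaks outside the intragenic set were not counted in runs.

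Gene lists, 5 in all, were set beside the 16.4% of all genes with room that were hosts. Of the pluripotency and early embryo regulators 12 of 35 with room were hosts (34.3%, 20.8 to 50.8%), with 33 members, 26 of them with an ATAC-seq peak. The strongest were in Dnmt3a (9.61), a de novo DNA methyltransferase, Trim71 (9.58), a ubiquitin ligase and RNA repressor under let-7 control, Tet2 (8.12), which oxidises 5-methylcytosine, Tcf7l1 (7.21), a repressor of Wnt targets, Etv5 (6.71) and Esrrb (5.14). Of the chromatin regulators 12 of 53 were hosts (22.6%, 13.5 to 35.5%), with 20 members, 18 with an ATAC-seq peak, led by the H3K4 methyltransferase gene Kmt2c (14.9), the BAF subunit gene Arid1b (14.7) and the deacetylase gene Hdac7 (11.4).

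Of the signalling receptors and effectors 23 of 58 were hosts (39.7%, 28.1 to 52.5%), with 49 members, 40 with an ATAC-seq peak. The insulin-like growth factor receptor gene Igf1r had 1 at 24.0, in an intron, and the insulin receptor gene Insr 1 at 11.4. Fgfr2 counted as a host only through its M21 model of 2961 kb, since none of the 8 members there, up to 22.1, lay inside Fgfr2 as RefSeq draws it (104 kb). Ephb2 and Ror2, receptors of ephrins and of Wnt5a, had 9 each, up to 9.27 and 8.25. Of the neuronal adhesion, synapse and very long genes 36 of 65 were hosts (55.4%, 43.3 to 66.8%), with 76 members, 66 with an ATAC-seq peak. Their median room was 849.9 kb, and genes with 300 kb or more of room were hosts in 47.9% of cases. Rims1, a scaffold of the presynaptic active zone, had 1 in a coding exon at 26.2, Dlg2 reached 21.03, Dlgap1 18.02 over 7 members and Cntnap2 16.6.

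Of the imprinted genes 7 of 29 were hosts (24.1%, 12.2 to 42.1%). Their 31 members had a median fold enrichment of 3.16, against 4.08 over all members, and 10 had an ATAC-seq peak, but 23 of the 31 were those of Kcnq1. The strongest were in H13, a signal peptide peptidase gene (12.6), and in a coding exon of Zdbf2 (10.6). Kcnq1 apart, all 8 members of this list had an ATAC-seq peak. Room differed between the lists, with medians of 18.9 kb (pluripotency), 35.6 kb (chromatin), 73.0 kb (signalling), 849.9 kb (neuronal) and 39.6 kb (imprinted), and the share of hosts rises with room, so the shares of the lists are descriptions and were not compared with 16.4% at like room.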

How the data were processed

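The deposited H3K4me3 list came from the ENCODE uniform pipeline for histone ChIP-seq at default parameters, and gives fold enrichment (a ratio) and −log10 q of each peak. Its score column was deposited too and was not used. For ATAC-seq the authors aligned reads with Bowtie 1.1.2 and moved read ends by 4 bp for the transposase. They called peaks with MACS2 2.1.1.20160309 at a lenient p-value limit and kept pooled peaks found in both replicates. Every share with an ATAC-seq peak rests on that limit. Both lists stand for 2 replicates. In the whole H3K4me3 list of 33487 peaks, 16 had q over 0.05.

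Peaks were joined to GENCODE M21 and the GRCm38.p6 sequence with pandas 2.3.3 and pysam 0.24.0. bedtools 2.31.1 returned the same 3574 members. Where a member had several hosts, the summit was classed over all of them, an exon in any host before an intron and a coding exon first. Intron number and position along the gene were read in the shortest host. Shares carry 95% Wilson and differences 95% Newcombe intervals, and no p-value was computed. Named genes follow a written rule: the 10 strongest, the 5 widest, the 5 hosts with most members, the 3 farthest from a start, the 5 strongest with a coding summit, the 5 strongest without an ATAC-seq peak, those beside the 5 kb limit and, in each gene list, the leading hosts. Members of runs and hosts of chosen contrasts were added after their values were seen. The members and lists were chosen with earlier results of these data known.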

Additional observations from a re-analysis of the deposited data

Results flagged for a closer look

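Chromosome X was outside the autosomal set and held 51 peaks that met the same rule, in 34 host genes. They came to 1.48 per Mb of X-linked gene sequence over 5 kb from starts, against 3.14 to 7.50 on the autosomes. Their median fold enrichment was 4.73 and 43 of 51 (84.3%, 72.0 to 91.8%) had an ATAC-seq peak. The strongest was in Mid1, a microtubule-associated ubiquitin ligase gene, at 16.6.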

How the results depend on the processing

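No paired analysis was possible because each list stands for both replicates together, and leaving out each replicate was not run for the same reason. Of the values recomputed under other settings, 55 kept their direction and their side of 0 or, for counts, medians and shares, stayed near the value given (a count within 1.5 times), 16 moved further, 6 differences changed sign and 2 kept their sign with an interval that held 0. With 2 kb from starts there were 5352 members, 3302 hosts, an exonic share of 27.1% and an ATAC-seq share of 77.4%. With 10 kb there were 2240 members, 1369 hosts and an exonic share of 21.96%. With basic transcripts only, there were 5116 members, the exonic share was 31.4%, median width 607.5 bp, median fold enrichment 4.20 and the share of hosts with a marked start 90.9%, and with a start counted within 5 kb the last was 91.0%. With −log10 q of at least 5 the ATAC-seq share was 84.7%, width 620 bp and fold enrichment 4.40. It was 58.6% when 50% of the ATAC-seq peak had to be covered and 70.1% with the widest 50% of ATAC-seq peaks. Members minus peaks outside genes in ATAC-seq share was −0.19 points (2 kb), 0.64 (−log10 q of at least 5) and −0.57 (50% covered), and, by ranges chosen after seeing the data, 9.18 (fold under 3), 6.23 (3 to 5), −1.29 (5 to 10) and −0.81 (10 or more). Members minus starts was −28.6 with 50% covered, −21.5 with the widest 50% of ATAC-seq peaks and −9.15 with starts counted within 5 kb, and by strength 5.89 (under 3), 0.17 (3 to 5), −0.70 (5 to 10) and −1.14 (10 or more). Of the 6 differences that changed sign, only 5.89 had an interval without 0. The cause of these changes was not tested. Adding RefSeq starts left 3110 members, 80.0% with an ATAC-seq peak. A RefSeq protein-coding gene held 3398 of the 3574, and 3359 lay in the RefSeq gene of the same name as a host. Without counts the smallest enrichment the depth could show is unknown.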

Other observations

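In 234 hosts, with 308 members, no H3K4me3 peak lay within 1 kb of any GENCODE start of the gene. Some of these hosts had one farther out, since 91.0% of all hosts had a peak within 5 kb of a start against 89.3% within 1 kb. Their median fold enrichment was 4.27, 249 (80.8%, 76.1 to 84.8%) had an ATAC-seq peak, and the median CpG ratio was 0.401, against 0.374 over all members. The strongest, named after their values were seen, were in Ldb3 (36.9) and Asb18 (28.6), in Klhl31 (25.3), a kelch-like gene of muscle, in Fgf23 (24.8), the phosphate hormone of bone, and in the phosphatase gene Dupd1 (20.5). All of these had an ATAC-seq peak. RefSeq starts were not used here: the Asb18 peak was 1178 bp from one, of Gm41915, and the Ldb3 peak 24966 bp from one. Fgf23 is only 8.51 kb long, with 3.51 kb over 5 kb from a start, so its peak is near the end of a short gene.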
